A study of Mus musculus with 2 samples.

Results

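The genes described here encode the cell's folding machinery: the heat shock proteins of the HSP70, HSP90, mitochondrial chaperonin and small heat shock families, the J-domain co-chaperones of the DNAJ families and the subunits of the cytosolic chaperonin CCT, together with Tcp1, Hsf1, Hsf2 and Canx. Members were the protein-coding genes whose mouse symbols follow the naming patterns of these families, plus those 4 named genes. The rule found 80 genes among the 43346 features with an Ensembl gene identifier, of which 21474 are protein-coding. A further 9 features have matching names but are not typed as protein-coding. They are 8 processed pseudogenes and Cct6a, whose type in the annotation is processed transcript, and Cct6a is shown beside the other CCT subunits without being counted as a member.

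RNA came from whole lung of healthy B6NCrl mouse embryos at embryonic day 15.5, untreated, with male and female embryos pooled. The single group held 2 libraries, of which replicate 1 pooled 78 embryos and replicate 2 pooled 62. The estimated reads came to 40395849.8 and 36601054.1. Since every pool gave 1 library, effects of the embryos and effects of handling cannot be told apart, and no comparison between conditions exists.

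HSP70 proteins bind exposed hydrophobic stretches of client proteins in a cycle of ATP hydrolysis that J-domain proteins start and nucleotide exchange factors end, and HSP90 takes over clients that are partly folded, such as kinases and steroid receptors. CCT is a double ring that closes around actin and tubulin while they fold, HSPD1 with its lid HSPE1 does the like inside mitochondria, and small heat shock proteins hold unfolded proteins in solution. The transcription factor HSF1 switches on the inducible members after heat or other stress by binding inverted repeats of the bases GAA, called heat shock elements. Many members, among them the constitutive HSP70 gene Hspa8, are transcribed without stress in growing tissue.

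Some coding sequences end in known motifs of cytosolic or ER chaperones, and these ends are printed from the leading complete transcript of the GENCODE M21 annotation. Of 78 members with a complete coding transcript, 7 end in codons for the tetrapeptide EEVD, the tail of cytosolic HSP70 and HSP90 proteins that binds co-chaperones with tetratricopeptide repeats. These are Hspa8, Hspa1a, Hspa1b, Hspa1l, Hspa2, Hsp90aa1 and Hsp90ab1. A further 3 end in codons for KDEL, the signal that keeps proteins in the endoplasmic reticulum (ER), namely Hspa5, Hsp90b1 and Dnajc10. The other members have neither end, among them the ER genes Canx and Dnajb11 and the CCT genes, so the motifs do not sort all members. The last 24 coding bases are given 5′ to 3′, with the codons of the tetrapeptide in capitals and the stop codon last.
Hspa8: cccaccattGAAGAGGTGGATtaa
Hspa1a: cccaccatcGAGGAGGTGGATtag
Hsp90ab1: tcgcgcatgGAAGAGGTGGATtaa
Hsp90aa1: tcacgcatgGAAGAAGTAGACtaa
Hspa5: acatcagaaAAAGATGAGTTGtag
Hsp90b1: tctacagagAAGGATGAATTGtaa
Dnajc10: aaaagaaatAAGGATGAGCTTtga
The J domain is known for the tripeptide HPD, which stimulates the ATPase of HSP70. Codons for HPD were found in 40 of the 41 DNAJ members with a complete coding transcript, and not in the leading complete transcript of Dnajc25.

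Promoter sequences were searched for heat shock elements because the members include both inducible and constitutive genes. The RefSeq table of promoters (build GRCm38.p6) matched 65 of the 80 members. The other 15 were not searched: Hspa8, Hspa9, Hspa13, Hsp90aa1, Hsp90ab1, Hspb2, Cct4, Hsf1, Dnajc2, Dnajc5, Dnajc11, Dnajc12, Dnajc18, Dnajc22 and Dnajc30. The 250 bases before each annotated start were searched for GAANNTTC and TTCNNGAA, each of which reads the same on both strands, and for the longer elements GAANNTTCNNGAA and TTCNNGAANNTTC, which contain them. A shorter element was present for 16 of the 65 members (24.6%), against 14.5% of all 27025 genes in the table. A longer element was present for 3 members (4.62%), against 0.514% of all genes. The 3 members were Hspd1, Hspe1 and Dnajb6, and none of the 3 ER chaperone genes held an element of either length. Hspd1 and Hspe1 are transcribed away from each other on chromosome 1, and the same bases serve as the element in both windows. They are shown with Dnajb6, and with Hspa1a and Hspb1 as members that held a shorter element alone, with the elements in capitals.
Hspe1, chr1:55088053-55088082, plus strand: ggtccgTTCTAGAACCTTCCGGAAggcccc
Hspd1, the same bases read on the minus strand: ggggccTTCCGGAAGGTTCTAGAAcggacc
Dnajb6, chr5:29735844-29735872, plus strand: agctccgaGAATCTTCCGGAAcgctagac
Hspa1a, chr17:34972242-34972271, minus strand: cgaaactgctgGAAGATTCctggccccaag
Hspb1, chr5:135887791-135887820, plus strand: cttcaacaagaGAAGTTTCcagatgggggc
In the Hspd1 and Hspe1 windows overlapping longer elements join into a single stretch, which ends 72 bases before the Hspe1 start. The Dnajb6 element begins 46 bases before the nearer of its annotated starts. The printed elements of Hspa1a and Hspb1 begin 104 and 117 bases before the start, and the Hspb1 window holds 2 shorter elements, of which the first is shown. The printed bases of Hspa1b, on chromosome 17, are the same as those of Hspa1a. A match is a description of these letters, and binding by HSF1 was not measured.

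The members were broadly and strongly expressed. Levels are TPM, a measure of transcript abundance that corrects for length and scales each library to the same total. Detection was set at a minimum of 1 TPM in each of the 2 libraries. By that measure 73 of the 80 members were detected (91.2%), against 60.7% of all protein-coding genes. The mean TPM was at least 10 for 58 members (72.5%, against 41.3% of protein-coding genes) and at least 100 for 23 members (28.7%, against 7.44%). The median TPM over all 80 members was 29.09 in replicate 1 and 28.65 in replicate 2, and over all protein-coding genes 4.99 and 4.52. Part of that gap comes from undetected genes. Over detected genes alone the medians were 32.89 and 32.49 for the members and 20.3 and 19.23 for protein-coding genes.

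**Figure D1:**
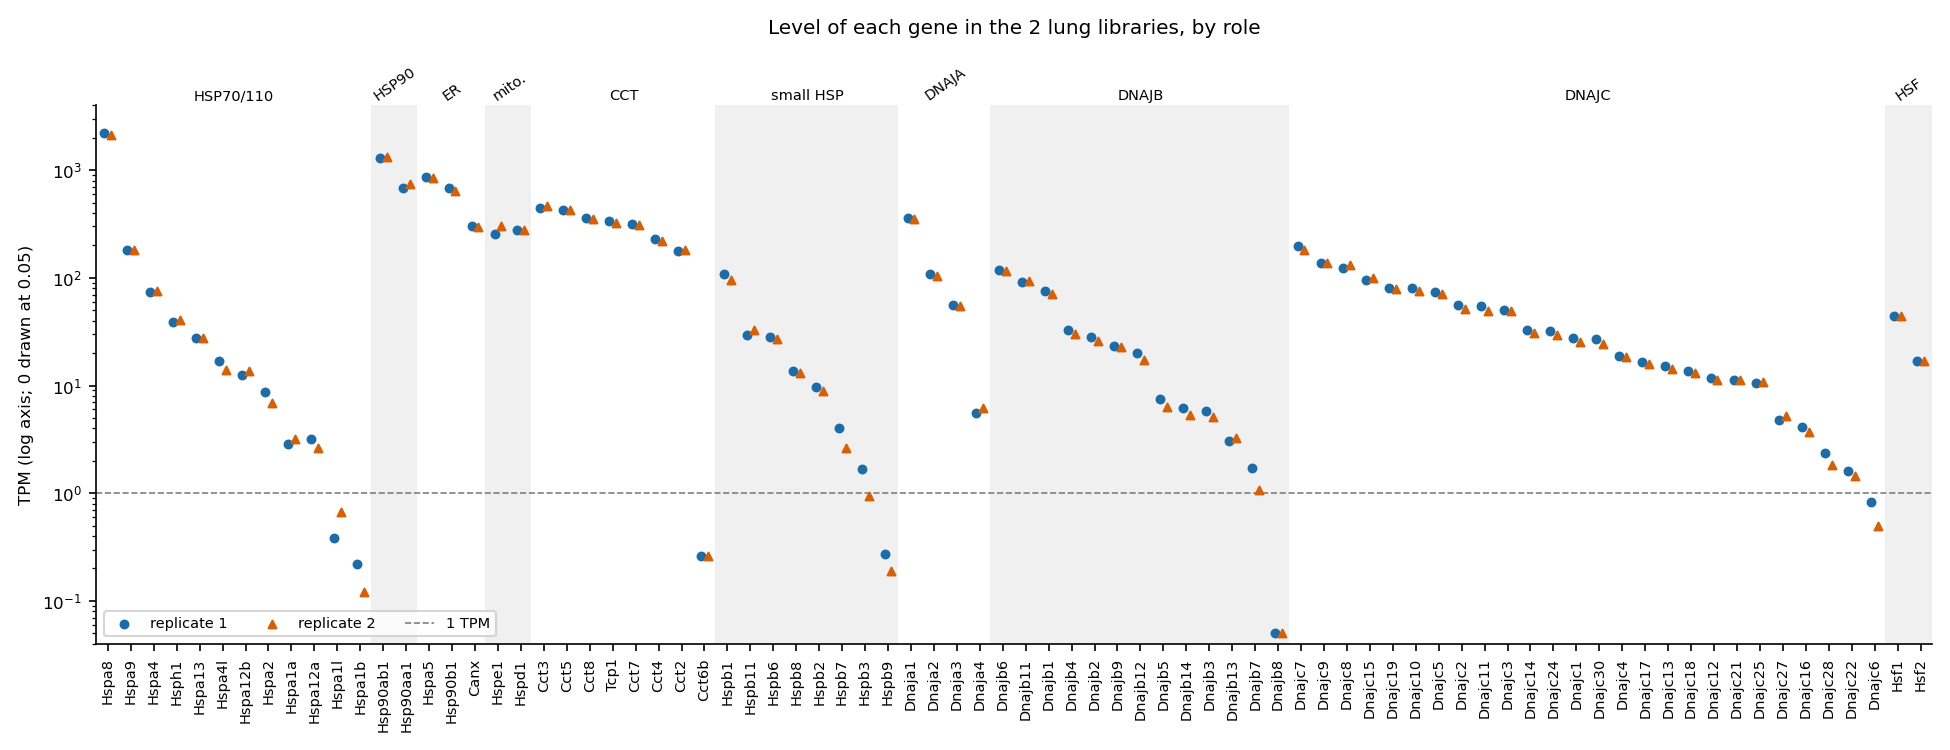
TPM on a log axis for each of the 80 genes in replicate 1 (circles) and replicate 2 (triangles), grouped by role and ordered by mean within each role, with a dashed line at 1 TPM. Hspa8 and Hsp90ab1 stand above 1000 TPM, and 7 genes lie under the line in at least 1 library, with Dnajb8 listed at 0 in both.

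Together the members held 11638.6 TPM in replicate 1 and 11485.3 in replicate 2 (11562 ± 108, SD, n = 2), which is 1.22% and 1.21% of the TPM of all Ensembl genes. The sum rested on few genes. The 3 most abundant members, Hspa8, Hsp90ab1 and Hspa5, held 37.8% and 37.4% of it, and the 10 most abundant held 66.1% in each library. By role, the HSP70 and HSP110 genes held 2535 ± 83.5 TPM, the CCT genes 2285 ± 7.62 without Cct6a, the cytosolic HSP90 genes 2027 ± 56 and the ER chaperones 1818 ± 42.7 (SD, n = 2 for each). That order depends on the genes counted. The 8 CCT ring genes, with Cct6a and without Cct6b, summed to 2681.5 and 2673.2 TPM. This lay above the HSP70 and HSP110 sums of 2594.5 and 2476.4. The 26 DNAJC genes held 1161 ± 27.6 TPM, more than the 4 DNAJA genes (521.8 ± 10.1) and the 13 DNAJB genes (405.8 ± 12.7) put together. The mitochondrial chaperonin pair held 558.2 ± 31.1 TPM, the small heat shock genes 188.9 ± 11.3 and the HSF pair 61.01 ± 0.0424.

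Among the HSP70 and HSP110 genes a constitutive member stood far above the inducible ones. Hspa8 (ENSMUSG00000015656.12; chromosome 9, 40800984 to 40810087 on GRCm38), which encodes the cognate HSC70, reached 2227.61 TPM in replicate 1 and 2109.64 in replicate 2 and ranked at place 22 among all protein-coding genes. Hspa1a (ENSMUSG00000091971.3; chromosome 17, 34969190 to 34972156), the classical stress-inducible HSP70 gene, stood at 2.86 and 3.19 TPM. Its neighbour Hspa1b stood at 0.22 and 0.12 TPM. The coding sequences of this inducible pair match at 1918 of 1926 aligned bases (99.6%), so the split of reads between them is uncertain, while their sum of 3.08 and 3.31 TPM does not depend on it. Hspa8 exceeded that sum 723-fold and 637-fold (680 ± 61, SD, n = 2). The coding sequence of Hspa8 matches that of Hspa1a at 74.6% of aligned bases.

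The other HSP70 relatives lay between these extremes. Hspa9, the mitochondrial HSP70, stood at 181.06 and 181.65 TPM. Hspa4, an HSP110 that exchanges nucleotide on HSP70, stood at 74.51 and 75.79 TPM, 1.89 ± 0.039 times its relative Hsph1 (38.82 and 40.65). This pair was apart, meaning that the order was shared by the libraries and that the intervals deposited with the TPM did not overlap in either. On complete coding transcripts, those annotated with a full coding sequence, the order turned: Hspa4 stood at 33.3 and 35.51 TPM and Hsph1 at 38.09 and 39.74. Hspa2, known for its part in spermatogenesis, reached 8.65 and 6.87 TPM, although the 4 germ cell markers Ddx4, Sycp3, Tnp1 and Prm1 were all under 1 TPM with sums of 0.74 and 0.58. Hspa1l, which is transcribed in testis and starts 547 bases from Hspa1a in the opposite direction, was not detected, with 0.38 and 0.67 TPM. The ER-associated Hspa13 (27.55 and 27.53), Hspa4l (17.03 and 13.95) and Hspa12b (12.56 and 13.68), known from endothelium, filled the middle of the range. Hspa12a, at 3.22 and 2.62 TPM, was by mean the lowest detected member of the family, but it lay above Hspa1a in replicate 1, and their intervals overlapped in both libraries. Hspa14 is not among the members because its current gene identifier is not in the tables. Its main transcript is counted there under another gene and stood at 93.98 and 93.88 TPM.

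In the cytosol Hsp90ab1 (ENSMUSG00000023944.10; chromosome 17, 45567775 to 45573271), the constitutive HSP90 gene, reached 1303.76 and 1327.97 TPM. Hsp90aa1 (ENSMUSG00000021270.9; chromosome 12, 110690605 to 110702728), the more stress-responsive isoform, reached 683.5 and 738.51 TPM. The ratio of Hsp90ab1 to Hsp90aa1 was therefore 1.91 and 1.80 (1.85 ± 0.077, SD, n = 2), with intervals apart in both libraries. Their coding sequences match at 76.6% of aligned bases. That ratio depends on which transcripts are summed. An annotated fragment of 711 nt, whose coding sequence is incomplete in the annotation, held 51.02% and 52.88% of the Hsp90aa1 TPM, and complete coding transcripts held 28.5% and 26.5%. Since TPM divides by length, the complete transcripts took a larger share of the reads, 65.7% and 63.4%. Counting complete coding transcripts alone, Hsp90aa1 stood at 195.2 ± 0.191 TPM, Hsp90ab1 at 1043 ± 11.1 and their ratio at 5.34.

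The ER chaperones formed the next group. Hspa5 (ENSMUSG00000026864.9; chromosome 2, 34771970 to 34777547), the ER HSP70 known as BiP, reached 865.43 and 854.05 TPM. Hsp90b1, the ER HSP90 known as GRP94, reached 678.39 and 638.76 TPM. A feature typed as miRNA, Gm25745, lies within Hsp90b1 on the same strand and is listed at 581.95 and 503.72 TPM, so reads of the gene may be split with it. Canx, the lectin chaperone calnexin, stood at 304.06 and 294.7 TPM. All 3 neighbours were apart in both libraries. Hspa8 exceeded Hspa5 2.52 ± 0.073 times, and 2.13 times when only complete coding transcripts are counted.

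Of the mitochondrial chaperonin, the ring gene Hspd1 (chromosome 1, 55077835 to 55088243) stood at 279.3 and 276.52 TPM and the lid gene Hspe1 (chromosome 1, 55088132 to 55091307) at 256.95 and 303.73 TPM. Hspe1 lay below Hspd1 in replicate 1 and above it in replicate 2, with ratios of 0.92 and 1.1, so the libraries gave no common order. The annotated exons of the pair overlap on opposite strands, and the use of strand in counting is not given in the sources used here, so reads in that stretch cannot be assigned with certainty. Both exceeded Hspa9, the mitochondrial HSP70, in both libraries: the ratio of Hspd1 to Hspa9 was 1.53 ± 0.014.

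The 8 genes of the CCT ring were all abundant and lay close together. Cct3 (ENSMUSG00000001416.9; chromosome 3, 88297116 to 88321767) led at 447.07 and 463.99 TPM, followed by Cct5 at 428.43 and 424.74 and Cct6a at 391.25 and 393.8. Cct8 stood at 361.35 and 355.04, Tcp1, which encodes the alpha subunit, at 334.73 and 326.21, and Cct7 at 313.03 and 308.7. Cct4 reached 228.91 and 221.13 and Cct2 176.7 and 179.63. In the ring each subunit occurs at the same number, and the ratio of the most to the least abundant mRNA was 2.53 in replicate 1 and 2.58 in replicate 2 (2.56 ± 0.037, SD, n = 2). The coefficient of variation over the 8 genes was 28.1% and 29.2%. The order was the same in both libraries and every pair of neighbours was apart by the deposited intervals.

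**Figure D2:**
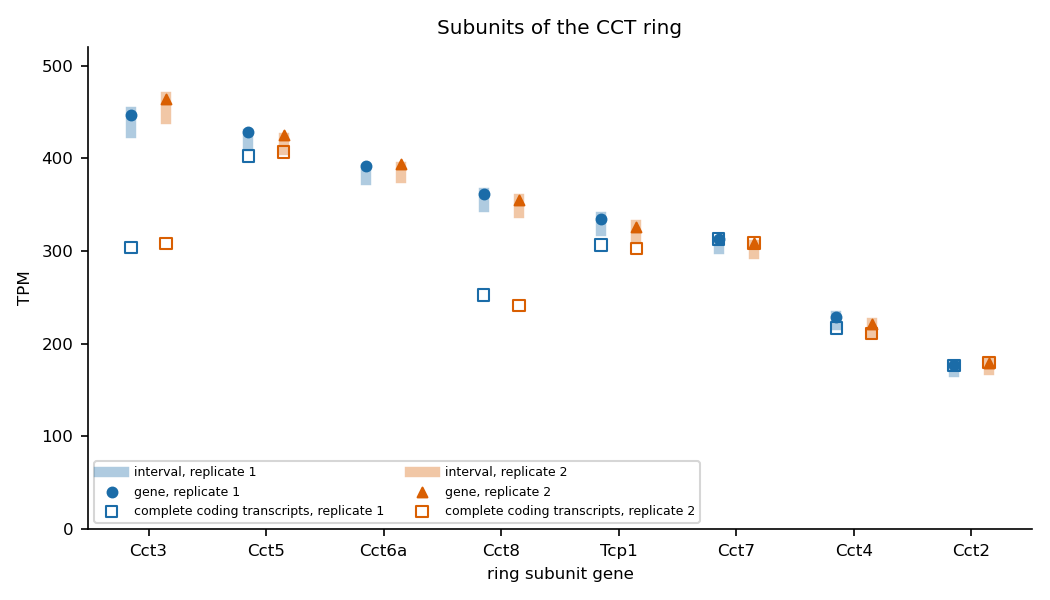
TPM of the 8 CCT ring genes in replicate 1 (circles) and replicate 2 (triangles), with the deposited intervals as shaded bars and the TPM of complete coding transcripts as open squares, which is not drawn for Cct6a. The gene TPM runs from 464 for Cct3 down to 177 for Cct2, while the squares of Cct3 and Cct8 lie far below their gene values.

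The range and the order within the ring differed when transcripts not annotated as coding for the full protein were left out. For Cct3, a retained-intron transcript of 472 nt held 30.16% and 32.48% of the TPM, and complete coding transcripts stood at 305.7 ± 3.11 TPM. For Cct8, a transcript typed for nonsense-mediated decay held 26.64% and 28.91%, and complete coding transcripts stood at 247 ± 7.83 TPM. On complete coding transcripts the order became Cct5 (404.5 ± 2.85), Cct7 (310.9 ± 3.06), Cct3, Tcp1 (304.7 ± 2.56), Cct8, Cct4 (213.9 ± 4.25) and Cct2 (178.2 ± 2.07) by mean, and the ratio of highest to lowest over these 7 genes was 2.27. The libraries gave no common order of Cct3 and Tcp1, with 303.46 and 307.86 TPM for Cct3 and 306.55 and 302.93 for Tcp1. Cct6a has no transcript typed as coding in the annotation used for names, although RefSeq types the gene as protein-coding. It is left out of that order and of the CCT role sum of 2285 TPM above. Cct6b, the alternative zeta subunit known from testis, stood at 0.26 TPM in both libraries and was not detected.

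Small heat shock genes were the lowest family by sum apart from the HSF pair. Hspb1, which encodes HSP27, led at 109.5 and 95.58 TPM, followed by Hspb11, a gene of this name that encodes an intraflagellar transport protein, at 29.72 and 32.49. Hspb6 stood at 28.45 and 26.9 TPM, and Hspb1 exceeded it 3.70 ± 0.21 times. Hspb2 stood at 9.69 and 8.94 TPM, and the overlapping gene Cryab, which is read from the opposite strand, at 78.2 and 67.07. Hspb8, a partner of the co-chaperone BAG3, stood at 13.54 and 13.19 TPM, and Bag3 at 15.41 and 15.27. The lowest detected gene was Hspb7, the cardiovascular member, at 4.06 and 2.65 TPM. Hspb3 at 1.66 and 0.95 and Hspb9 at 0.27 and 0.19 did not reach 1 TPM in both libraries.

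All 4 DNAJA genes were detected. Dnaja1, a farnesylated partner of cytosolic HSP70, reached 357.93 and 349.28 TPM, Dnaja2 109.26 and 103.8, and the mitochondrial Dnaja3 56.2 and 55.34. Dnaja4 was lowest at 5.59 and 6.24, and shares exonic bases on the opposite strand with Wdr61, at 124.91 and 125.26 TPM. Dnaja1 exceeded Dnaja2 3.32 ± 0.063 times by gene TPM, but complete coding transcripts held only 21.9% and 21.1% of the Dnaja1 TPM, or 76 ± 3.43 TPM, which lies below Dnaja2 at 106.5 ± 3.86. A transcript of 916 nt with an incomplete coding sequence held 41.97% and 41.99% of it.

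In the DNAJB family 12 of 13 genes were detected. Dnajb6, a suppressor of protein aggregation, led at 117.9 and 115.83 TPM. Dnajb11, a partner of Hspa5 in the ER, stood at 92.47 and 92.8, and Dnajb1, the HSP40 gene that HSF1 induces, at 75.85 and 71.1. These 3 were apart from each other in both libraries, with Dnajb6 at 1.59 ± 0.053 and Dnajb11 at 1.26 ± 0.061 times Dnajb1. The lowest detected gene was Dnajb7 at 1.72 and 1.08 TPM, and Dnajb8 was listed at 0 in both libraries, which allows up to 0.127 TPM in replicate 1 and 0.137 in replicate 2. The remaining 7 genes of the family ran from Dnajb3 (5.84 and 5.12 TPM) to Dnajb4 (32.52 and 30.22). Dnajb13, known from motile cilia, stood at 3.07 and 3.24 TPM and shares exonic bases on the opposite strand with Ucp2, at 253.35 and 221.74 TPM.

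The DNAJC family had 25 of 26 genes detected. Dnajc7, which carries tetratricopeptide repeats and binds both HSP70 and HSP90, led at 196.63 and 183.16 TPM. Dnajc9, a histone co-chaperone, stood at 137.4 and 136.89, and the splicing-associated Dnajc8 at 123.38 and 130.44, and the intervals of the latter pair were not apart in both libraries. Complete coding transcripts held 30.2% and 32.1% of the Dnajc7 TPM, and on these alone it did not lead: it stood at 59.4 and 58.8 TPM, below Dnajc9 and below Dnajc8 at 106.61 and 108.89. Dnajc15, at 96.03 and 98.62 TPM, has a single listed transcript, and the newer annotation types it for nonsense-mediated decay. Dnajc10, the ER disulfide reductase with the KDEL end printed above, stood at 81.11 and 75.23 TPM. The remaining 19 genes ran from Dnajc28 (2.35 and 1.84) to Dnajc19 (80.72 and 78.73), which is known from the import motor of the mitochondrial inner membrane. Dnajc22 was the lowest detected gene at 1.60 and 1.45, and Dnajc6, the auxilin gene known from brain, stood at 0.82 and 0.50 TPM.

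Of the regulators, Hsf1 (ENSMUSG00000022556.9; chromosome 15, 76477422 to 76501913) stood at 44.1 and 44.21 TPM and Hsf2 at 16.88 and 16.83. Hsf1 exceeded Hsf2 2.62 ± 0.01 times, with intervals apart in both libraries. Hsf3, Hsf4 and Hsf5, which the rule leaves out, were all under 1 TPM.

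The balance of transcript types was also described over the family. Of the 58 members with a mean of at least 10 TPM, 46 had a transcript that held more than 50% of the gene's TPM in both libraries, and for 44 of these it was a complete coding transcript. Complete coding transcripts held at least 90% in both libraries for 35 members. They held under 50% in both for 8 members (13.8%, against 11% of 8877 protein-coding genes past the same level), which were Dnaja1, Dnajc1, Dnajc7, Dnajc15, Dnajc25, Hsp90aa1, Hspa4 and Hspa4l. The median share was 94.8% and 96.1% over the members and 95.1% and 95.6% over those genes. For Hspa4l, transcripts absent from the annotation used for names were counted as not complete, and their type is not known. The largest, of 1949 and 9479 nt, held 26.95% and 17.62% of its TPM in replicate 1 and 33.39% and 18.36% in replicate 2. Hspa8 had a retained-intron transcript of 456 nt that held 23.18% and 23.41% of its TPM, and complete coding transcripts held 70.4% and 69.6%, or 91.7% and 91.3% of its reads.

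**Figure D3:**
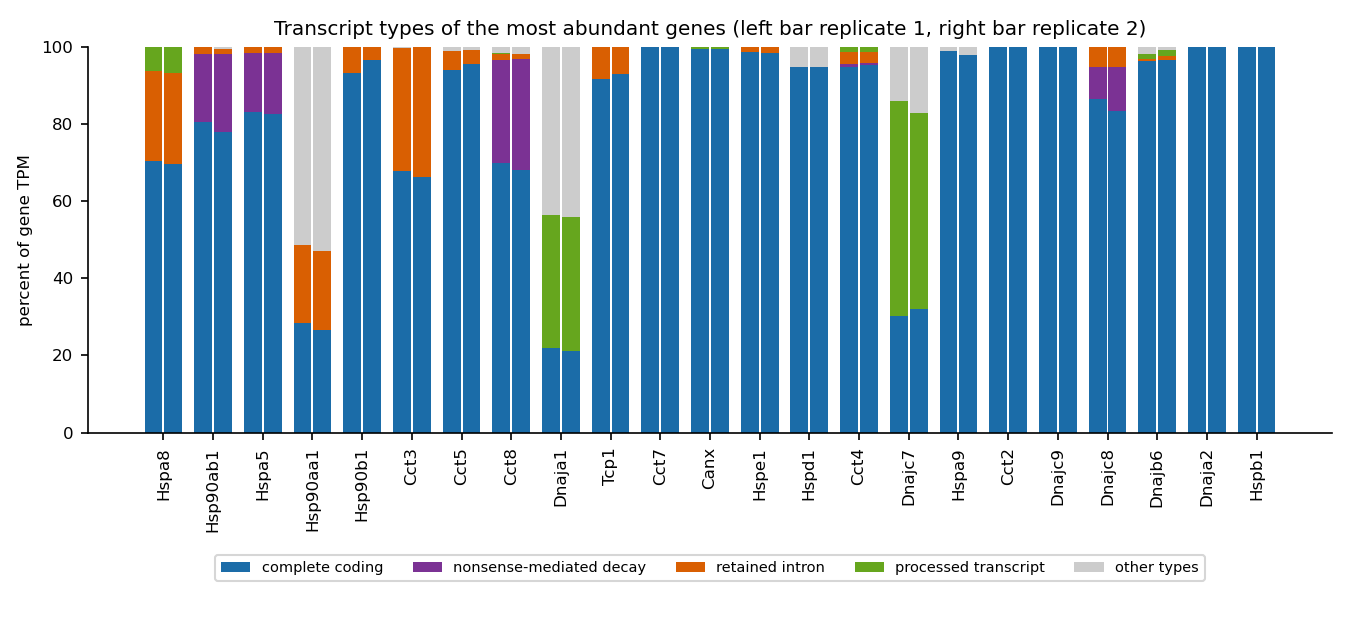
Percent of gene TPM held by each annotated transcript type for the 23 members with a mean of at least 100 TPM, replicate 1 on the left and replicate 2 on the right of each pair of bars. The paired bars are alike, and Hsp90aa1, Dnaja1 and Dnajc7 are the genes whose complete coding part (blue) is under 50%.

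The pools were then compared gene by gene, after scaling replicate 2 to replicate 1 by TMM. A gene was called apart when its mean was at least 5 TPM, its scaled levels differed 2-fold or more and its deposited intervals did not overlap. None of the 65 members past that level was apart, against 41 of 11261 genes (0.364%). The count of members was 0 under each of 6 other settings, which called 0.364% to 1.35% of all genes. At such shares a set of this size would be likely to hold few or none. The log2 ratio of replicate 2 over replicate 1 ran from -0.26 (Hspa2) to 0.31 (Hspe1), with a median absolute value of 0.055, against 0.077 over all genes with a finite ratio. Of the 65 members, 52 (80%) lay within 10% of equality, and 73.9% of all genes did. Neither comparison was matched for level, and a larger share of the members was abundant, as given below. They therefore do not show whether members differed less than other genes of like level.

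Smaller differences were judged by the deposited intervals alone. Relative to the level, these are narrower for abundant genes: 2143 to 2221 TPM for Hspa8 in replicate 1, against 1.288 to 2.162 for Dnajb7. The shares below were not matched for level, and 28.7% of all members but 7.44% of protein-coding genes reached a mean of 100 TPM. After TMM scaling the intervals did not overlap for 14 of the 65 members (21.5%), against 13.5% of all genes, with 12 higher in replicate 2 and 2 higher in replicate 1. The share higher in replicate 2 was 85.7% of these members and 68.1% of the genes with separate intervals. The direction of that split depends on the scaling. TMM placed a shift of 0.072 (log2) on replicate 2, and on the TPM as deposited 13 members (20.0%) had intervals that did not overlap, against 17.4% of all genes. Of these 13, 2 were higher in replicate 2 (15.4%, against 16.3% among all such genes) and 11 were higher in replicate 1. Only 4 of the 65 members were separate in the same direction under both. Hspe1 and Hsp90aa1 were higher in replicate 2, with scaled log2 ratios of 0.31 and 0.18. Hspb1 and Hspa2 were higher in replicate 1, with -0.12 and -0.26. Members with a mean under 5 TPM were not counted. Among those, Hspb7 had deposited intervals of 3.535 to 4.452 in replicate 1 and 2.223 to 2.994 in replicate 2, which do not overlap. Its scaled log2 ratio was -0.54, further from equality than those of the 4 named.

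**Figure D4:**
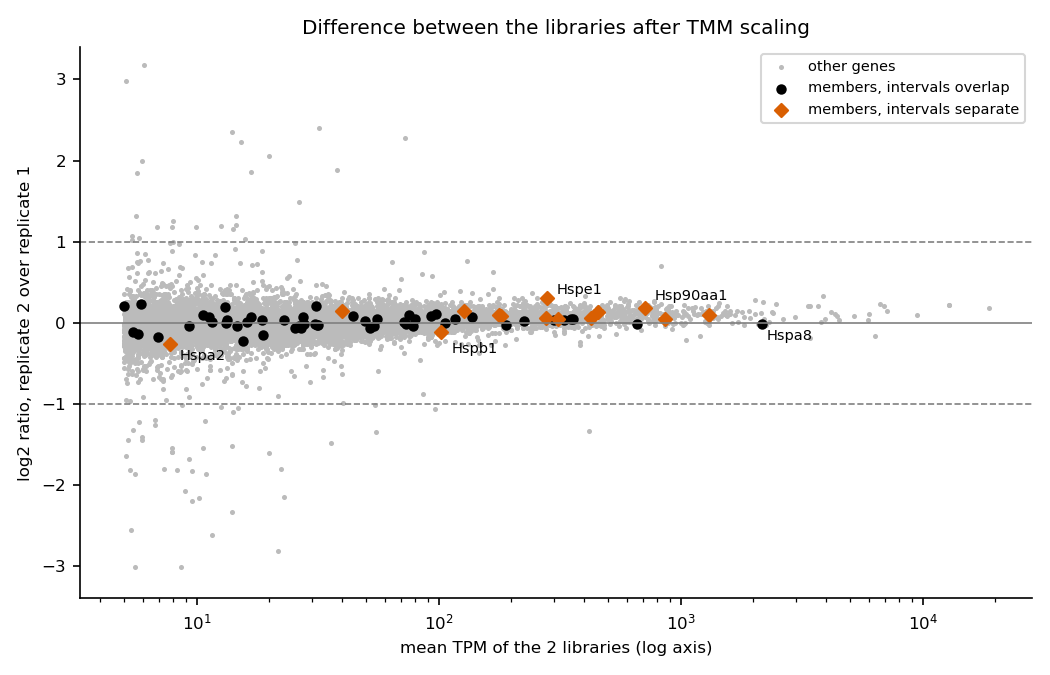
Log2 ratio of replicate 2 over replicate 1 after TMM scaling (vertical axis) against mean TPM on a log axis, for genes with a mean of at least 5 TPM. Grey points are other genes, black points members whose intervals overlap and orange diamonds members whose intervals do not, and every member lies between the dashed lines of a 2-fold difference.

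The tissue label was checked against markers. The lung markers Sftpc (6881.12 and 5863.6 TPM) and Nkx2-1 (74.1 and 71.04) were present in both libraries, with 0 of 4 lung epithelium markers apart. Markers of other organs did differ: 6 of 7 liver markers were apart and higher in replicate 2 (summed 34.07 and 158.5 TPM), and 4 of 5 thymus and T cell markers were apart and lower in replicate 2 (summed 92.36 and 18.33). The remaining liver marker Ttr (1.25 and 6.31) and thymus marker Ptcra (6.89 and 1.06) had means under 5 TPM and could not be called. Their log2 ratios were 2.41 and -2.63. Of 8 heart and skeletal muscle markers 5 were apart, with Myl2, Myl3, Myh7 and Acta1 higher in replicate 2 and Myh6 lower (80.27 and 29.88), and the list's sums were 752.2 and 757.4 TPM. Of 4 neural markers only Tubb3 passed a mean of 5 TPM, and it was apart and lower in replicate 2 (9.68 and 3.84). The sums of the neural list were 14.88 and 7.54. These differences between the pools concern genes listed as markers of liver, thymus, muscle and neural tissue. Whether their RNA came from cells within the lung or from tissue beside it was not tested. The part of such cells in the differences of Hspe1, Hsp90aa1, Hspb1, Hspa2 and Hspb7 was not tested either. In whole tissue, fewer cells of a type and less RNA per cell cannot be told apart.

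Partners of these chaperones outside the naming rule were likewise present in both pools. All 13 genes listed with the HSP90 co-chaperones were detected, with a median of 135.8 and 131.2 TPM, from the p23 gene Ptges3 at 466.11 and 473.8 down to the glucocorticoid-induced Fkbp5 at 28.45 and 25.11. The list includes Trap1, at 73.28 and 72.98 TPM, which encodes the mitochondrial HSP90 itself and not a co-chaperone. All 13 partners of HSP70 were detected, with a median of 42.52 and 40.45, from the ubiquitin ligase gene Stub1 at 210.65 and 219.08 down to Bag4 at 11.5 and 11.46. The 8 prefoldin genes and CCT cofactors had a median of 97.14 and 102.9, from Pfdn5 at 308.65 and 333.49 down to Pdcl at 44.87 and 43.76. The 13 genes of ER folding and its stress response had a median of 193.8 and 176.3, from the calreticulin gene Calr at 910.47 and 866.67 down to Atf6, a sensor of that response, at 8.52 and 7.63. None of the genes in these 4 lists was apart between the pools, in either direction, and 0.364% of all genes past 5 TPM were. At that share, lists of this size would be likely to hold none. Of 14 family relatives that the naming rule misses, 6 were detected, and the highest was Hsbp1, a binding partner of HSF1, at 269.89 and 272.73 TPM. Of 7 immediate early genes, which handling of tissue is known to induce, 6 were detected, with a median of 9.18 and 8.35 TPM. They ran from Jun at 104.61 and 103.28 and Ier2 at 77.77 and 76.47 down to Fosb at 0.19 and 0.13. Only 4 passed a mean of 5 TPM, and 0 of these were apart.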

How the data were processed

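Total RNA of 2 lung pools was sequenced, and the authors deposited a gene table and a transcript table for each library. Per the file headers, these hold expected counts, which need not be whole, TPM, FPKM, posterior mean values, the percent of a gene's TPM held by each transcript, and interval bounds, a signal on the TPM scale, placed around the posterior mean at a level the headers do not name. The TPM itself lay outside that interval for 10 members in replicate 1 and 11 in replicate 2. The deposited description names build mm10 and annotation GENCODE M4. The program and its use of strand were not given in the sources used here. This bears on 21 of the 80 members, whose exons overlap those of another protein-coding gene, 20 of them on the opposite strand. Names, types and positions come from GENCODE M21 on the same build by identifier, which matched 97.96% of Ensembl genes.

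The members and gene lists were chosen with earlier results of these data known. The genes described by name are the 3 most abundant of each role, the lowest detected and undetected ones, those of at least 100 TPM, and all CCT, HSF and Canx genes. Hspa1a, Hspa2, Hspa4l, Hspa12b, Hspa13, Hsph1, Hspb2, Hspb8, Dnajb13, Dnajc10 and Dnajc15 were added for their role or transcripts after their values were seen. A transcript was called complete coding when typed as protein-coding with no tag for an incomplete end. Counts were rounded to integers before scaling with edgeR 4.0.16 (TMM) and DESeq2 1.42.0 in R 4.3.3. The scaling was also run on simulated counts that had less spread than these libraries and intervals computed from counts. That run does not test the calls made here with the deposited intervals. Coding sequences were aligned globally with Biopython 1.88. At these depths 3 reads equal 0.113 and 0.122 TPM for an effective length of 1 kb. Intervals and floors cover counting and read assignment only. Each library comes from its own pool, so the SD takes in the spread between pools.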

Additional observations from a re-analysis of the deposited data

How the results depend on the processing

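Alternatives changed the size of some sums and ratios. The summed TPM of the members was 12168 with FPKM rescaled to a common total over genes. It was the same with spike-in sequences and numbered features left out, which amounts to the same rescaling. It was 11342 with posterior mean TPM, and 8864 with complete coding transcripts alone, an alternative chosen after seeing the data. It was 11485 to 11639 with 1 replicate left out. The CCT ratio of highest to lowest was 3.32 with the largest transcript of each gene and 2.27 with complete coding transcripts, and 2.53 to 2.58 with 1 replicate left out. The ratio of Hsp90ab1 to Hsp90aa1 was 5.34 with complete coding transcripts, and that of Hspa8 to Hsp90ab1 was 1.46 in place of 1.65. On complete coding transcripts 7 ratios crossed equality: Hspa4 to Hsph1 was 0.88, Dnaja1 to Dnaja2 0.71, Dnajc7 to Dnajc9 0.43, Dnajc7 to Dnajc8 0.55, Cct3 to Cct5 0.76, Cct8 to Tcp1 0.81 and Tcp1 to Cct7 0.98. Sums by role were not formed on complete coding transcripts, and their order can differ from that of gene TPM. On these transcripts the cytosolic HSP90 genes stood at 1043 and 195.2 TPM by mean, against 713.1, 624.6 and 297.9 for the ER chaperones. The number of members detected was 58 to 75 under other minimum levels and 73 or 74 from 1 library. The median log2 ratio of the members was 0.034 after TMM scaling, 0.035 with DESeq2 size factors and -0.038 with no further scaling. Of 11261 genes, the number apart was 41 as described, 42 with no scaling, 85 at 1.5-fold and 64 with an exact binomial test. It was 162 of 15152 genes (1.07%) at a minimum of 1 TPM and 337 of 25036 (1.35%) with no minimum. No paired analysis was possible because there is a single group. With 2 libraries no outlier can be identified, and genes near the 3-read floor, such as Hspb9, are not ranked.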
